A study of Mus musculus with 20 samples.

Results

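The regions described here are 1816 CTCF-binding regions of mouse embryonic stem cells that held a peak in every one of 4 CTCF peak lists but ranked among the weakest peaks only in wild-type cells. Peaks of the 4 lists that overlapped by at least 1 bp were merged into 54729 regions, of which 32740 had a peak in all 4 lists and are called shared. The peak score was ranked within each list as a percentile from 0 to 100, with the highest peak taken where a region held several. A shared region was kept when its percentile was under 25 in both wild-type lists and at least 25 in both lists from knockout cells, and the kept regions are called WT-weak regions below. They made up 5.55% of the shared regions, and were chosen by their score percentiles; percentiles, scores and widths of the same peaks are therefore given as a description with no test.

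Both groups were embryonic stem cells of strain background 129. One was wild type (WT), the other a knockout of the thymine DNA glycosylase gene (TDG KO), and both lines were gifts to the submitters. Both were grown in serum with LIF on fibroblasts that can no longer divide, and the fibroblasts were depleted by repeated plating before chromatin was prepared. CTCF was measured by chromatin immunoprecipitation and sequencing with 2 libraries per genotype, and polyadenylated RNA was sequenced with 2 libraries per genotype. The labels do not say whether replicates came from separate cultures or how many clones each genotype stands for, so genotype and cell line cannot be told apart. The p-values below reflect library-to-library spread, and that spread may be technical.

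CTCF is a zinc finger protein that binds a long DNA motif, anchors chromatin loops together with cohesin and acts as an insulator between enhancers and promoters. TET enzymes oxidise 5-methylcytosine in steps to 5-formylcytosine and 5-carboxylcytosine, and TDG excises these last forms so that base excision repair can restore cytosine. The question in the title of the series is whether 5-carboxylcytosine favours CTCF at suboptimal sequences, and WT-weak regions are the shared sites that ranked lowest in WT but not in TDG KO.

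Sequence was read in the promoter windows of the RefSeq table for GRCm38.p6 (mm10), each running from 250 bases before to 50 bases after a start site. The motif searched on both strands was a 12-base CTCF core with 7 fixed letters: CC, any 3 bases, AG, any 2 bases, and GGC. A few promoters lying in WT-weak regions are printed because they show the full core or its nearest miss, each with the strand of its gene, 36 bases on either side, and the 12 bases of the best match in capitals. The first 4 hold all 7 fixed letters before the start site.
Map7, chr10:20148799-20148882, plus strand: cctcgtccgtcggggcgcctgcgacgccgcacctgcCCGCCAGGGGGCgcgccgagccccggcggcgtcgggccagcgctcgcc
Mfsd6l, chr11:68556003-68556086, plus strand: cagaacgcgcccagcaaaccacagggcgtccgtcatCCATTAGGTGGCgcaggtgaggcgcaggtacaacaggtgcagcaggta
Zpr1, chr9:46272856-46272939, plus strand: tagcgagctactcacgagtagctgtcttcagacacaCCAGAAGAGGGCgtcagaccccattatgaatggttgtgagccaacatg
Abhd14b, chr9:106448549-106448632, plus strand: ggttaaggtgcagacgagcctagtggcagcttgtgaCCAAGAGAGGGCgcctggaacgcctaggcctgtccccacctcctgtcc
Fto, chr8:91313299-91313382, plus strand: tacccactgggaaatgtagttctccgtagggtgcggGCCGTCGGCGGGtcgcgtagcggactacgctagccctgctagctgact
Ptpn9, chr9:56994872-56994955, plus strand: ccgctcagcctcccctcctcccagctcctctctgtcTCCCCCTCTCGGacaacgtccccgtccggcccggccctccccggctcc
The last pair shows the more common case, in which the best match holds 6 of the 7 letters. With positions counted from 1 at the 5′ end of the core, read on the strand of the match, Fto differs from the core by A6C and Ptpn9 by C12A, and both matches lie on the minus strand, so the capitals show their reverse complement. Map7 carries a CpG at bases 2 and 3 of the core, a spelling in which the cytosine can be methylated and oxidised.

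Of the 1816 WT-weak regions, 41 (2.26%) touched a promoter window and 34 covered at least 100 bases of one. The core stood in 7 of these 34 (20.6%, exact 95% binomial interval 8.70 to 37.9), but in 7 of the 12 (58.3%, 27.7 to 84.8) where regions were chosen on the ranks over shared regions described below. In shared regions of percentile 25 or more in all 4 lists it stood in 416 of 956 (43.5%, 40.3 to 46.7), and in TDG KO-only regions, called in each TDG KO list but in no WT list, in 27 of 91 (29.7%, 20.5 to 40.2). The share in the 34 WT-weak regions thus lay below that of the stronger regions. The 12 of the other ranking are not all WT-weak regions, and their interval held the 43.5% of the stronger ones. The best match reached 6 letters in 21 of the 34 WT-weak regions (61.8%) and in 439 of the 956 stronger ones (45.9%), and 5 or fewer in 6 (17.6%) and 101 (10.6%). The CpG spelling was found in 1 of 34 (2.94%) and 145 of 956 (15.2%). Over all 32817 promoters of the table the core stood in 8.61% and the CpG spelling in 2.21%. The stretches searched were shorter in WT-weak regions, with a median of 229 bases against 288, and had a median of 4.77 CpG per 100 bases against 6.27, and the part of either in the motif shares was not tested. A match is a description of the letters, not a binding site, and promoters hold a small share of the regions.

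The printed promoters also show how the regions ranked. Mfsd6l, an orphan transporter gene, has its start inside chr11:68555757-68556221, which lay at percentiles 19.8 and 8.74 in WT replicates 1 and 2 and at 94.6 and 82.1 in TDG KO replicates 1 and 2. The Abhd14b region, chr9:106448406-106448760, lay at 5.82 and 16.04 in WT against 26.4 and 46.8 in TDG KO. The Map7 region, chr10:20148634-20148900, lay at 20.6 and 22.4 in WT against 36.2 and 48.8 in TDG KO. Mfsd6l thus ranked near the bottom in WT and near the top in TDG KO, while Abhd14b in TDG KO replicate 1 sat close to the threshold.

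The WT lists held 38303 and 37099 peaks and the TDG KO lists 48514 and 48833. Regions not shared by all lists numbered 5298 and 4070 in WT, of which 83.9% and 81.1% lay under percentile 25, and 15634 and 15824 in TDG KO, of which 66.95% and 67.5% did. Of the shared regions 15.3% and 17.8% lay there in WT against 4.84% and 4.17% in TDG KO. In RNA, Tdg was at 28.1 and 30.4 FPKM (fragments per kilobase of transcript, scaled to the mapped fragments) in WT against 5.50 and 4.74 FPKM in TDG KO. The 8 embryonic stem cell markers summed to 7512 and 8238 FPKM in WT against 5658 and 5859 in TDG KO, with Dppa5a alone at 4515 and 5099 against 3227 and 3301. The members went both ways, with 4 called lower, among them Dppa5a and Pou5f1, and 2 called higher, Nanog and Utf1 (log2 differences 0.31 and 0.67). The 10 fibroblast markers summed to 732 and 550 FPKM against 585 and 639 FPKM, with none of the 18 listed at 0 in every library. Of these 10, 6 were called lower and 1 higher, Vim, at 248 and 204 FPKM in WT against 318 and 354 FPKM in TDG KO. In such bulk RNA fewer cells of a type and less RNA per cell cannot be told apart. Reads per RNA library are not given in the files used here.

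In WT the WT-weak regions had median percentiles of 15.8 and 13.9, and in TDG KO of 40.3 and 40.8. The median peak score was 11.9 and 12.3 in WT against 26.0 and 26.9 in TDG KO, in the authors' units. Their peaks were also narrower in WT, with median widths of 194 and 190 bp against 278 and 262 bp in TDG KO. Across all shared regions the widths were 279 and 266 bp in WT against 333 and 316 bp in TDG KO, so peaks were wider in TDG KO in the whole shared set too. A region counted 1 peak in each list in 1801 of the 1816 cases.

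The gap between the lower TDG KO percentile and the higher WT percentile had a median of 18.3 points and ran from 0.715 to 74.3. It exceeded 20 points in 797 regions and 40 points in 93, and was under 5 points in 84. In 1346 regions (74.1%) the gap was larger than the difference between replicates in either genotype, whose medians were 6.07 points in WT and 7.48 in TDG KO. The rule keeps both WT percentiles under 25 and the gap positive, so this comparison is partly set by the choice of regions. In both TDG KO lists 204 regions lay above percentile 50 and 7 above 75. At the other end, 1063 regions (58.5%) came within 5 points of the threshold in at least 1 list.

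How many regions met the rule depended on what the ranks were taken over. With the mirrored rule, under 25 in both TDG KO lists and at least 25 in both WT lists, 36 regions were found, or 0.11% of the shared ones. When the percentile was ranked over the 32740 shared regions alone, so that every list had the same members, 714 regions (2.18%) were weak only in WT and 638 (1.95%) only in TDG KO. Of the 1816 WT-weak regions, 253 met both rules, which is 13.9% of the 1816 and 35.4% of the 714. On that scale the median percentiles of the 1816 were 7.74 and 8.56 in WT against 16.3 and 15.9 in TDG KO, and both TDG KO values lay above both WT values in 1062 regions (58.5%) and below them in 59 (3.25%). Over all shared regions these shares were 19.1% and 20.2%. The 1816 were chosen by ranks of these same scores, so their distance from these shares is no separate evidence. The number of regions chosen thus moved with list length, and genes near the 253 are given separately below.

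**Figure D1:**
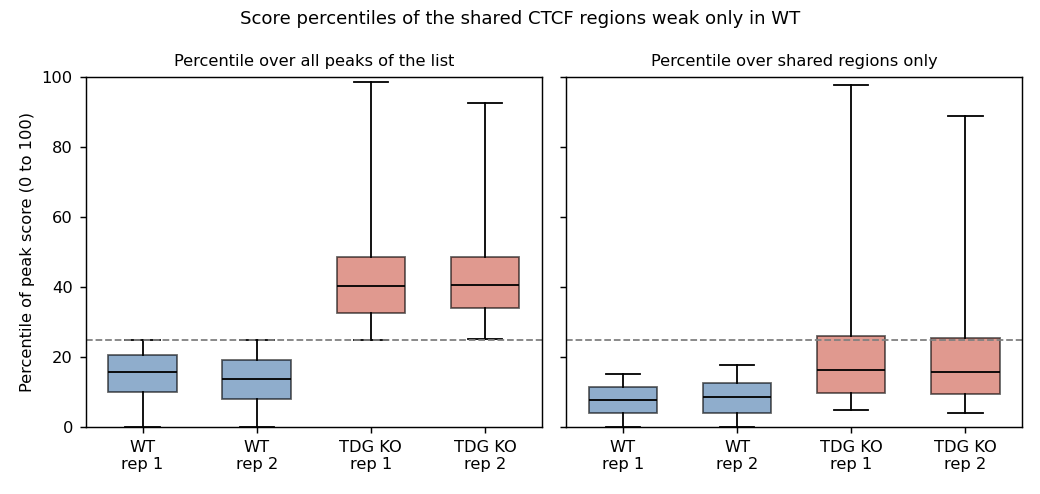
Percentile of the peak score (0 to 100) in each CTCF list for the 1816 WT-weak regions, ranked over all peaks of the list (left) and over the shared regions only (right). Boxes span the quartiles with the median as a line, whiskers reach the lowest and highest region, and the dashed line marks 25, which divides the lists by construction on the left and falls near the upper quartile of the TDG KO lists on the right.

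The 12 WT-weak regions with the widest gap met both rules, and 6 of them lie on chromosome 11, with 2 each on chromosomes 6 and 16. The widest gap was at chr6:126503817-126504377, inside the noncoding gene Gm38899 and 28.2 kb from Kcna5, a voltage-gated potassium channel gene. Its percentiles were 12.2 and 13.9 in WT against 95.9 and 88.2 in TDG KO, and its scores 10.7 and 12.3 against 104.0 and 80.3. Next came chr12:104448152-104448713, 22.5 kb from Gsc, the goosecoid homeobox gene of the gastrula organiser, at 18.9 and 22.5 in WT against 98.5 and 92.6 in TDG KO. These regions went from the low end of the WT lists to the top of both TDG KO lists. Replicates lay closer to each other than the genotypes did, which the choice by the widest gap largely sets.

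The third, chr16:13580841-13581130, lies within Parn, which encodes a poly(A)-specific ribonuclease, and stood at 22.0 and 9.99 in WT against 92.1 and 85.9 in TDG KO. On the same chromosome chr16:16202045-16202328, 11.02 kb from the desmosome gene Pkp2, stood at 2.68 and 11.2 against 66.4 and 67.1. Besides Mfsd6l, the chromosome 11 regions were near Tac4 (45.0 kb), in Fam20a, in Fstl4, near Rnft1 (47.5 kb) and near Skp1 (7.22 kb). The region in Fam20a, a gene for a secreted pseudokinase of enamel formation, is chr11:109674565-109674975 and stood at 2.86 and 15.98 in WT against 75.1 and 78.4 in TDG KO. The remaining pair were chr7:135428882-135429238 near Foxi2 and chr6:146394521-146394824 in Itpr2, the gene of an intracellular calcium channel, where the values were 2.54 and 19.8 against 72.5 and 73.8.

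**Figure D2:**
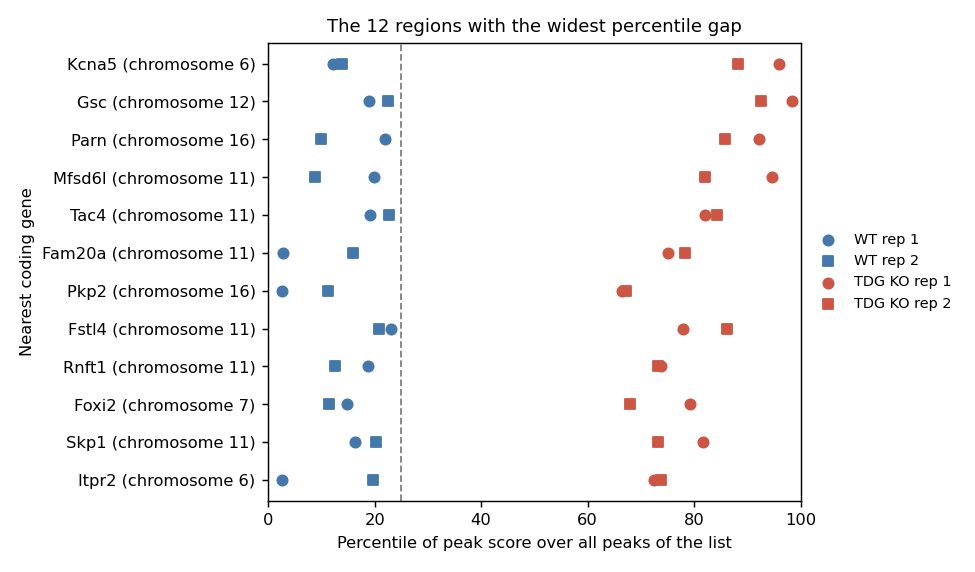
Percentile of the peak score over all peaks of each list (x axis, 0 to 100) for the 12 WT-weak regions with the widest gap, named by the nearest coding gene. Circles are replicate 1 and squares replicate 2, blue WT and red TDG KO, and the dashed line is the threshold of 25. The lowest TDG KO value among the 12 is 66.4, near Pkp2.

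The region chr10:119498451-119498719 in Grip1 was just inside, at 24.98 and 11.04 in WT against 47.5 and 51.5 in TDG KO. The region chr5:148682567-148682892 was just outside, at 23.2 and 25.02 against 69.0 and 43.7.

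Genes lay close to a smaller share of WT-weak regions than of stronger shared regions. A gene end was within 10 kb of 54.5% of them (52.2 to 56.8), against 61.9% (61.2 to 62.5) of the 24621 shared regions of percentile 25 or more in all 4 lists and 61.7% of the 446 weak in all 4. TDG KO-only regions gave 53.1%. A start site was within 1 kb of 104 of 1767 WT-weak regions (5.89%, 4.83 to 7.09) and of 8.62% (8.27 to 8.99) of the stronger ones, with median distances of 22.2 and 16.9 kb; start sites on chromosome 18 were not used. Inside a gene lay 57.8% (55.5 to 60.1) and 60.4%. The 5821 remaining shared regions, outside these classes and the mirrored rule, had 54.9% (53.65 to 56.2) within 10 kb of a gene end. That is close to the WT-weak share. A start site was within 1 kb of 7.22% of them, and 61.3% lay inside a gene. These intervals are exact 95% binomial intervals that cover counting error only, and neighbouring regions are not independent of each other.

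Most WT-weak regions stood alone. Another WT-weak region lay within 10 kb of 62 (3.41%), close to the 3.48% of stronger shared regions and the 3.37% of all shared regions. Joined at gaps of up to 50 kb, the WT-weak regions formed 1581 single sites, 100 pairs, 9 groups of 3 and 2 groups of 4. The groups of 4 spanned chr17:21117774-21187764 and chr5:147868783-147945613. The second holds Pomp, a chaperone of proteasome assembly, and Slc46a3, a lysosomal transporter gene. A TDG KO-only region lay within 10 kb of 8.31% of the WT-weak regions and 8.96% of the stronger shared regions.

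Chromosomes 11 and X held the largest shares of WT-weak regions, and each came with other values that moved with it. On chromosome 11, 185 of 2278 shared regions were WT-weak (8.12%, 7.03 to 9.32). On the X chromosome 67 of 690 were (9.71%, 7.60 to 12.2), and outside both 1564 of 29772 (5.25%, 5.00 to 5.51). On the ranks over shared regions chromosome 11 gave 7.73% and the X chromosome 0.435%, so that 89 of the 253 regions meeting both rules (35.2%) lay on chromosome 11 and 0 on X. On that scale the X share lay below the 2.18% of all shared regions, while the chromosome 11 share lay above the share of all shared regions on either scale.

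Peak numbers on these chromosomes differed too. Chromosome 11 held 2419 and 2676 peaks in WT against 4541 and 3779 in TDG KO, which is 6.32% and 7.21% of the WT lists and 9.36% and 7.74% of the TDG KO lists, and TDG KO replicate 1 stood apart. The median percentile of its shared regions, ranked over shared regions, was 47.0 and 55.6 in WT against 82.4 and 70.6 in TDG KO, so the whole chromosome ranked higher and not the WT-weak regions alone. In RNA 669 of 1014 tested genes on chromosome 11 were higher in TDG KO and 54 lower. On the X chromosome WT replicate 1 stood apart with 1501 peaks against 966, 1156 and 1259 in WT replicate 2 and TDG KO replicates 1 and 2. With the regions chosen from the other 3 lists, the WT-weak share on chromosome 11 was 8.34% without TDG KO replicate 1, against 7.01% of all regions shared by those lists, and the share on the X chromosome was 17.9% without WT replicate 1, against 13.9%. On ranks over the shared regions of those lists, chromosome 11 gave 8.82% against 3.78% and the X chromosome 2.53% against 5.42%. The part of these chromosome-wide differences in the choice of WT-weak regions was not tested.

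Leaving out 1 list changed how many regions met the rule. Without WT replicate 1 it was met by 4899 regions and without WT replicate 2 by 4244, while without TDG KO replicates 1 and 2 it was met by 2313 and 2176. The mirrored rule then gave 178, 213, 153 and 242. In 10 Mb windows with at least 50 shared regions the share of WT-weak regions ran from 0% to 17.6% with a median of 5.49%. The highest was the X chromosome from 100 to 110 Mb, 13 of 74, with 0 on the ranks over shared regions. Chromosome 11 from 20 to 30 Mb gave 10 of 72 (13.9%) and chromosome 16 from 10 to 20 Mb 17 of 129 (13.2%). Peaks in this last window numbered 145 and 150 in WT against 267 and 254 in TDG KO, and it holds the Parn and Pkp2 regions.

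**Figure D3:**
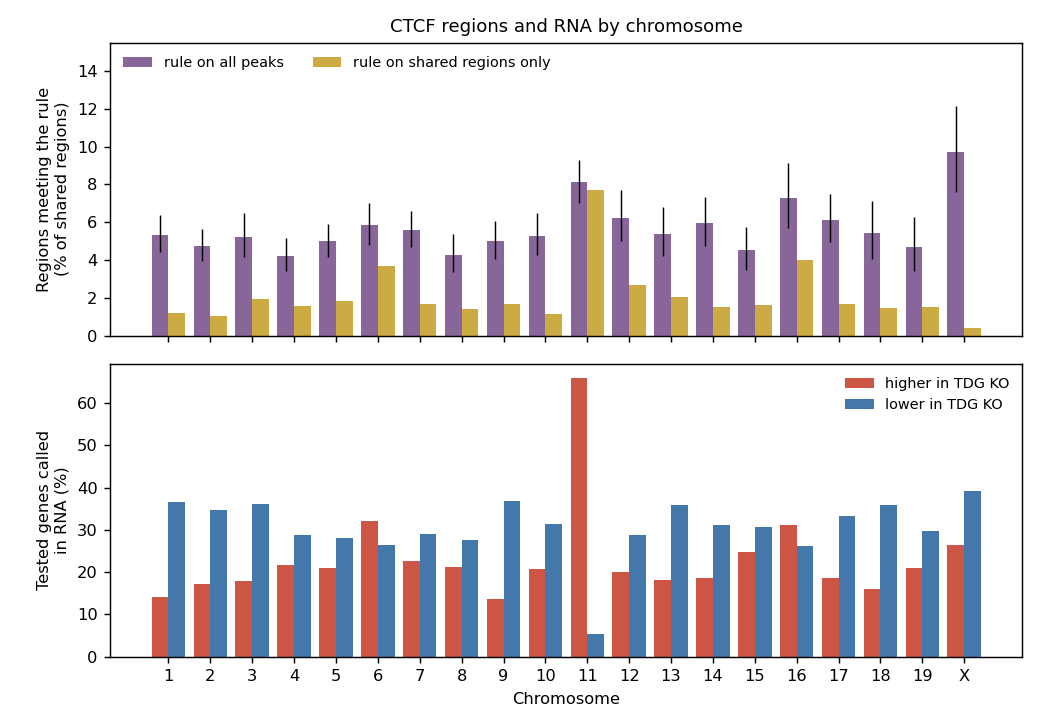
Top, share of shared CTCF regions that are weak only in WT on each chromosome, by the percentile over all peaks (purple, with exact 95% binomial intervals) and over shared regions only (yellow, no interval drawn). Bottom, share of tested genes called higher (red) or lower (blue) in TDG KO in RNA; chromosome 11 stands at 7.73% on the second ranking and at 66.0% higher calls in RNA.

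RNA was not used to choose the regions, and it asks whether genes beside them differ between the genotypes. A gene was tested where its mean was at least 1 FPKM, with limma on log2(FPKM + 1) and Benjamini-Hochberg adjustment over all 12035 genes, and called at an adjusted p under 0.05. Over all tested genes 24.4% were called higher in TDG KO and 29.5% were called lower. Of the 602 tested genes with an end within 10 kb of a WT-weak region, 215 were higher (35.7%) and 133 lower (22.1%), with a median log2 difference of 0.05 against -0.04 over all. Of genes near shared regions weak in all 4 lists 16.5% were higher and 32.6% lower, near stronger shared regions 26.8% and 27.0%, and near TDG KO-only regions 35.2% and 24.3%. Called with a log2 difference of at least 1 were 37 near genes, where 3.61% of all tested genes were, and at most -1 were 6, where 1.3% were. These are descriptions of overlapping gene sets, with no test between them.

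The chromosomes move with these shares. Near WT-weak regions of chromosome 11, 75 of 98 tested genes were higher (76.5%) and 1 lower (1.02%). Of all tested genes there, 66.0% were higher and 5.33% lower. Outside chromosomes 11 and X, 134 of 484 genes near WT-weak regions were higher (27.7%) and 126 lower (26.0%), against 20.4% and 31.5% of all tested genes there. Leaving out chromosomes 6 and 16 as well left 113 higher (26.0%) and 117 lower (26.9%) of 435, against 19.3% and 31.99%. Near the 253 regions that met both rules 47 of 76 tested genes were higher and 7 lower. But 32 of the 47 lie on chromosome 11, where 39 of the 76 were tested. Outside chromosomes 11 and X the counts were 15 higher (40.5%) and 7 lower (18.9%) of 37. The split also moves with scaling: by the upper quartile of expressed genes, 256 near genes were called higher and 78 lower, and 3861 and 2215 of all genes, as the median of all genes shifted by 0.11 on the log2 scale.

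**Figure D4:**
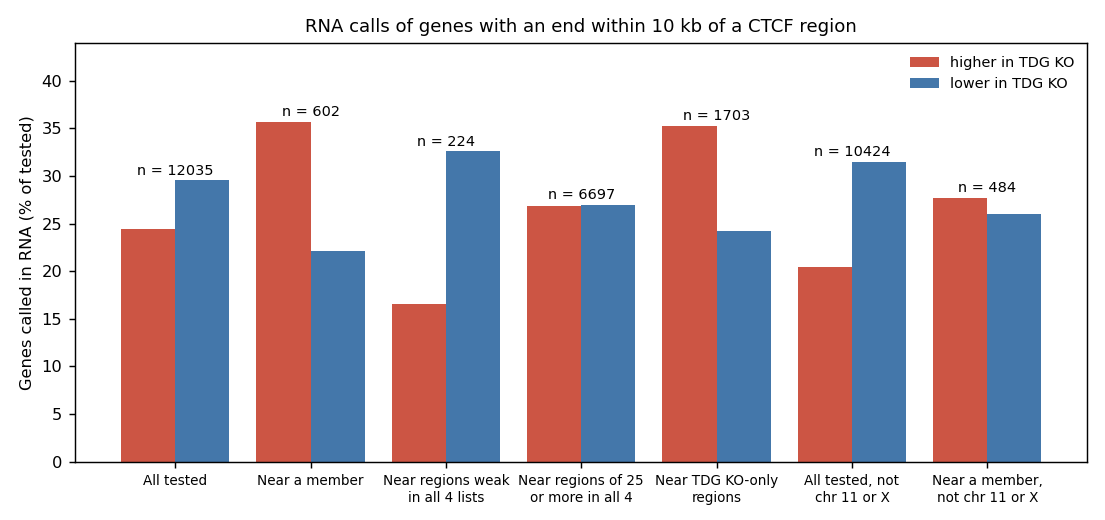
Share of tested genes called higher (red) or lower (blue) in TDG KO by limma at an adjusted p under 0.05, for all tested genes and for genes with an end within 10 kb of each class of CTCF region, with the number tested above each pair. Genes near a WT-weak region stand at 35.7% higher and 22.1% lower, and at 27.7% and 26.0% outside chromosomes 11 and X.

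Among genes beside a WT-weak region, Rhox5, a homeobox gene of the reproductive cluster on the X chromosome, rose furthest. Its RNA was 23.1 and 27.6 FPKM in WT against 513 and 541 FPKM in TDG KO, a log2 difference of 4.33 (SE 0.091, limma adjusted p = 1.91e-06). The region within it, chrX:37807775-37808052, lay at percentiles 17.4 and 16.8 in WT against 31.98 and 50.1 in TDG KO. Ranked over shared regions it lay at 8.94 and 10.7 in WT against 9.02 and 27.1 in TDG KO, where the genotypes overlapped, and it did not meet the rule. The genes named here were required to have RNA values that do not overlap between the genotypes, which held for 78.8% of all tested genes.

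Plagl1, an imprinted zinc finger gene, was at 0.883 and 0.661 FPKM in WT against 10.8 and 8.95 FPKM in TDG KO (log2 difference 2.62, SE 0.118, limma adjusted p = 1.80e-05). A region inside it, chr10:13127335-13127673, lay at 9.09 and 20.02 in WT against 49.997 and 49.3 in TDG KO and met both rules. Bst2, the antiviral membrane protein tetherin, was at 19.3 and 19.7 FPKM against 90.9 and 98.0 FPKM, 3.17 kb from chr8:71530833-71531085, which met both rules at 19.9 and 11.2 against 57.1 and 53.4. Car2, encoding carbonic anhydrase II, was at 30.1 and 31.6 FPKM against 95.01 and 96.1 FPKM, and chr3:14886036-14886370 covers its gene end at 23.7 and 22.7 against 49.1 and 49.9. Of the 8 most increased genes these 3 had a nearest region that met both rules, and none of the 3 lies on chromosomes 11 or X.

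The other 4 of the 8 were Arl14epl (log2 difference 2.58), Gm364 on the X chromosome (2.45), Gatsl3 (1.66) and Calcoco2, an autophagy receptor gene (1.60), the last pair on chromosome 11. Besides its nearest region, Calcoco2 holds chr11:96111529-96112090, which met both rules at 22.7 and 16.3 in WT against 65.7 and 60.6 in TDG KO. Counting genes near the 253 regions that met both rules, 11 of 76 tested were called with a log2 difference of at least 1, where 3.61% of all tested genes were, and 0 with at most -1, where 1.3% were. Of the 11, 6 lie on chromosome 11, from 39 tested near the 253 there, where 71 of all 1014 tested genes rose as far. Outside chromosomes 11 and X it was 5 of 37, against 305 of all 10424 tested genes. The counts near the 253 take genes by the distance of a gene end. They leave out Calcoco2, which rose, and Grb10, described below, which fell, though each holds a region meeting both rules. Beyond Plagl1, Bst2 and Car2, the others off chromosome 11 were Zscan5b and Gldc, a set singled out after their values were seen. Gldc, the glycine decarboxylase of the glycine cleavage system, was at 32.1 and 31.6 FPKM in WT against 79.6 and 81.9 FPKM in TDG KO (log2 difference 1.31, limma adjusted p = 1.66e-05). Its region, chr19:30167151-30167512, lies inside the gene. Zscan5b, a zinc finger gene, went from 0.486 and 0.445 FPKM to 4.04 and 4.68 FPKM.

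The 8 most decreased genes lie on 8 different chromosomes, and the region nearest each met the main rule but not the one over shared regions. Smarcd3, a subunit of SWI/SNF chromatin remodelling complexes, fell from 18.7 and 20.5 FPKM to 6.81 and 7.04 FPKM (log2 difference -1.38, SE 0.074, limma adjusted p = 3.42e-05). Its region, chr5:24597438-24597685, lay at 22.4 and 20.1 in WT against 47.8 and 45.7 in TDG KO. Ikbkb, a kinase of the NF-kappaB pathway, fell from 14.0 and 14.3 FPKM to 7.01 and 6.85 FPKM beside chr8:22658835-22659146, which ranked at 3.12 and 1.34 in WT against 31.2 and 27.96 in TDG KO. A higher CTCF rank thus stood beside lower RNA here and beside higher RNA at Plagl1.

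The rest were Ptp4a1, a phosphatase gene (log2 difference -1.09), the noncoding RNA Neat1 of paraspeckles (-1.01), the pseudogene H2-M6-ps (-0.999), Pidd1 (-0.88), Mtss1 (-0.84) and Gm12940 (-0.77). H2-M6-ps belongs to a family of near copies, so its reads are uncertain. Of the 16 genes named by size, 14 were marked significant in the authors' deposited table, Ptp4a1 (q = 0.284) and Gm12940 (q = 0.848) being the exceptions.

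**Figure D5:**
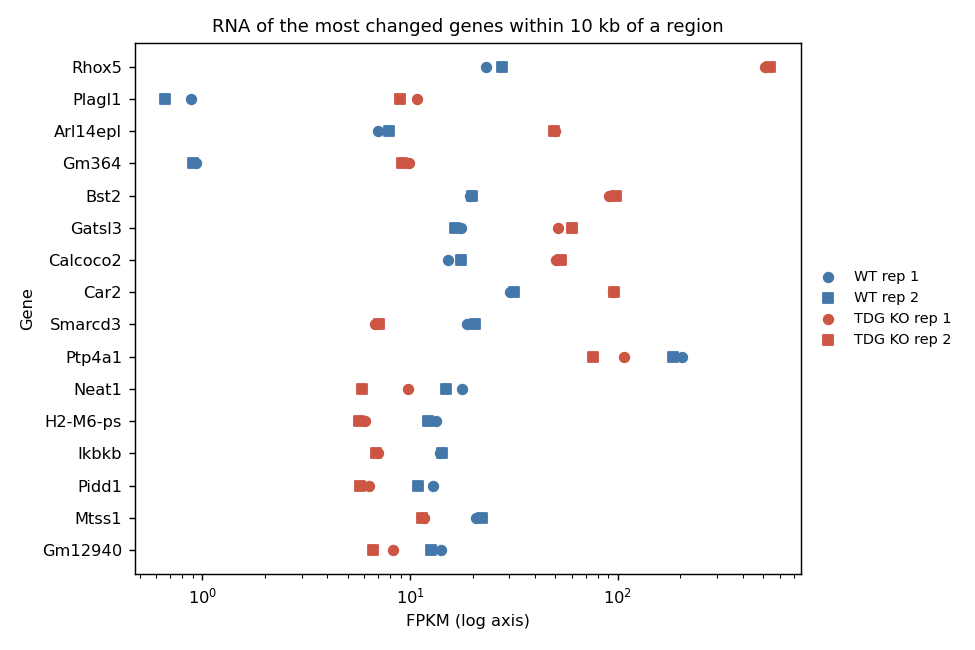
FPKM on a log axis in each RNA library for the 8 most increased (upper) and 8 most decreased (lower) genes with an end within 10 kb of a WT-weak region. Circles are replicate 1 and squares replicate 2, blue WT and red TDG KO; the genotypes do not overlap in any of the 16, which the rule for naming them required, and Rhox5 has the widest separation.

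Imprinted genes, in which 1 parental allele is silenced by DNA methylation, held the most regions of the 12 gene lists: 8 WT-weak regions lay near or inside 9 of 39 listed genes, which is 8 of the 60 shared regions there (13.3%), where 5.55% of all shared regions were WT-weak. Of the 7 of these genes that were tested, 4 were higher and 1 lower, where 24.4% and 29.5% of all tested genes were and 16 and 5 of the 29 tested genes of the list. Grb10, an imprinted adaptor of insulin signalling, was the lower one, at 75.3 and 79.1 FPKM in WT against 16.9 and 16.3 FPKM in TDG KO (log2 difference -2.15, limma adjusted p = 3.87e-06). A region inside it, chr11:11974935-11975272, met both rules at 11.6 and 19.8 in WT against 61.0 and 54.5 in TDG KO, and Grb10 fell on a chromosome where 5.33% of tested genes did. The higher ones besides Plagl1 were Zrsr1 (log2 difference 0.69), Mest (0.54) and Commd1 (0.39), and the authors' deposited table marked none of these 3 as significant (q = 0.180, 0.168 and 0.267). Zrsr1 lies inside Commd1, and 1 region lies by both, so their reads may not be separate, and no source used here says whether counting used strand.

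Meg3 and Rian, noncoding RNAs of the imprinted Dlk1 locus, had log2 differences of 0.28 and 0.16 and were not called. The region chr9:90027743-90028041, 0.764 kb outside Rasgrf1 and 86.8 kb from the nearest start site, was among the lower-ranked. It lay at 4.23 and 4.06 in WT against 32.4 and 34.2 in TDG KO. No WT-weak region lay near or inside a gene of the CTCF and cohesin list or the Hox list, of 31 and 21 shared regions there. Over all shared regions 5.55% were WT-weak. In the list of DNA methylation and oxidation genes 1 of 36 shared regions was WT-weak, chr10:78069534-78069838. It lay 5.91 kb from Dnmt3l, the cofactor of de novo methylation, whose RNA rose from 51.6 and 51.1 FPKM to 100.0 and 110.8 FPKM. Over shared regions this region lay at 12.9 and 4.88 in WT against 10.3 and 4.81 in TDG KO, where the genotypes overlapped. In base excision repair, Polb, the gap-filling polymerase downstream of TDG, fell from 27.2 and 29.5 FPKM to 20.6 and 21.9 FPKM (log2 difference -0.40), 5.37 kb from the region beside Ikbkb.

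The pluripotency factor Pou5f1 holds chr17:35509377-35509602, at 22.9 and 22.3 in WT against 32.3 and 35.8 in TDG KO. Over shared regions its order turned round, to 13.4 and 15.4 in WT against 9.31 and 11.1 in TDG KO. Its RNA fell from 1509 and 1572 FPKM to 996 and 1094 FPKM (log2 difference -0.56, limma adjusted p = 0.00189). Lefty2, a Nodal antagonist 2.08 kb from its region, rose from 19.1 and 22.5 FPKM to 49.2 and 48.6 FPKM. Col1a2, a fibroblast collagen, has a region within it, and its log2 difference of -0.60 had a limma adjusted p = 0.0418 that rose to 0.228 without TDG KO replicate 1; in the same libraries 6 of the 10 fibroblast markers were called lower and 1 higher, and their part in the Col1a2 value was not tested.

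In the polycomb list, whose genes encode repressive chromatin complexes, 3 of 30 shared regions were WT-weak. Suz12 rose from 64.3 and 71.3 FPKM to 99.6 and 90.0 FPKM (log2 difference 0.48), with chr11:80021346-80021787 inside it at 2.45 and 21.8 in WT against 49.8 and 70.3 in TDG KO. Cbx7 fell from 58.1 and 53.0 FPKM to 38.0 and 34.6 FPKM (log2 difference -0.60), which the authors' deposited table did not mark as significant (q = 0.215). In the protocadherin gamma cluster, where CTCF sites lie in variable promoters, 2 regions were found, of 67 shared regions for the whole protocadherin list. They were chr18:37723100-37723410 at 7.23 and 2.59 against 26.6 and 27.9 and chr18:37808774-37809342 at 23.2 and 18.4 against 39.6 and 52.8. Transcripts of the gamma cluster share their last exons, so reads may be split between genes. Of 4 tested genes with a region near or inside, 1 was called higher.

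At promoter windows touched by WT-weak regions, some by few bases, 7 of 24 tested genes were higher and 6 lower. These lie near the 24.4% and 29.5% of all tested genes, and the median log2 difference was -0.09. Abhd14b, whose promoter with the core is printed above, rose from 1.28 and 0.892 FPKM to 3.07 and 3.44 FPKM (log2 difference 1.03, limma adjusted p = 0.000731). Zpr1, a zinc finger gene with the core 166 bases before its start, rose from 55.2 and 55.8 FPKM to 72.0 and 78.3 FPKM. Over shared regions the Zpr1 region lay lower in TDG KO, at 9.68 and 15.2 in WT against 8.10 and 8.63. On that scale the genotypes overlapped at the Abhd14b and Map7 regions. Map7, with the CpG spelling 79 bases before its start, was at 11.2 and 11.9 FPKM in WT against 10.997 and 10.1 FPKM in TDG KO and was not called (adjusted p = 0.197). Fto, an RNA demethylase gene whose promoter lacks a full core match in its region, fell from 25.7 and 27.0 FPKM to 20.8 and 20.9 FPKM, and Ptpn9 had a log2 difference of -0.31 whose limma adjusted p went from 0.0300 to 0.170 with upper-quartile scaling and to 0.156 without WT replicate 1. In the authors' deposited table neither Fto (q = 0.0799) nor Ptpn9 (q = 0.0729) was significant. Mfsd6l was not among the tested genes.

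Of the coding genes nearest the 12 widest-gap regions, 4 were tested, and limma called these 4 higher. Over all tested genes 24.4% were, and on chromosome 11, where Skp1 and Rnft1 lie, 66.0%. Pkp2, 11.02 kb from its region, rose from 4.33 and 5.16 FPKM to 22.7 and 23.1 FPKM (log2 difference 2.06, limma adjusted p = 1.49e-05). Parn, with its region inside, rose from 14.5 and 16.001 FPKM to 24.6 and 25.03 FPKM (log2 difference 0.67). In the 10 Mb of chromosome 16 that hold both, 44 of 88 tested genes were higher and 17 lower. On chromosome 11, Skp1, listed as Skp1a in the RNA table and encoding a subunit of ubiquitin ligases, was at 293 and 309 FPKM in WT and rose to 367 and 405 FPKM (log2 difference 0.36, limma adjusted p = 0.00747). Without WT replicate 1 its adjusted p was 0.0703. Rnft1, 47.5 kb from its region, had a log2 difference of 0.29 and a limma adjusted p of 0.0169, which went to 0.108 without WT replicate 1, and it holds another WT-weak region, chr11:86497917-86498474. In the authors' deposited table Pkp2 and Parn were marked significant, and Skp1a (q = 0.260) and Rnft1 (q = 0.631) were not.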

How the data were processed

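CTCF immunoprecipitation and polyadenylated RNA of mouse embryonic stem cells were compared between the genotypes with 2 libraries per genotype and assay; RNA polymerase II, IgG and input libraries were not used here. Per the file headers, the authors deposited 1 peak list per CTCF library with a score per peak, whose unit is not given, and a table of FPKM values of 46939 genes. The authors' deposited comparison table gives a test score, a p-value, a q-value, mean FPKM and a log2 fold per gene, and the sign of its fold was turned to TDG KO over WT. TopHat2 2.1.1, Cufflinks 2.2.1, MACS2 2.2.1, Bowtie2 2.2.9 and mm10 are named in the submitters' processing notes, without roles.

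Peaks were merged and ranked with Python 3.11.15 and pandas 2.3.3. For RNA, limma 3.58.1 was run under R 4.3.3 (trend, 2-sided, Benjamini-Hochberg) on log2(FPKM + 1) for genes with a mean of at least 1 FPKM, a scale that understates changes of low genes. RefSeq positions matched 11880 of 12035 tested genes. Both procedures were tested on simulated data. An exact permutation test of 2 against 2 has a smallest p of 0.33, so peak values were not tested. Searching motifs in whole regions needs the genome, which was not used here, so promoter windows were searched and the planned matrix score was not run. The table of start sites used here lacks chromosome 18.

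The regions, gene lists, tests and alternatives were chosen with earlier results of these data known. The rule for names took the 12 widest gaps, regions beside the threshold, regions and up to 4 genes per list, and the 8 highest and 8 lowest called genes with an end within 10 kb, a mean of at least 5 FPKM and groups that did not overlap. Grb10, Suz12, Pkp2, Parn, Skp1, Rnft1, Meg3, Rian, Gldc, Zscan5b and the genes with promoters in a region were added after their values were seen. The alternatives were other rankings, thresholds, overlaps and distances, other pseudocounts, filters and scaling, a replicate block, and leaving out libraries or chromosomes.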

Additional observations from a re-analysis of the deposited data

How the results depend on the processing

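The number of WT-weak regions was 1816 and went to 714 with the percentile over shared regions only and to 535 with each list held to its 37099 strongest peaks, where the mirrored rule gave 496. It ran from 2176 to 4899 when 1 CTCF list was left out, which loosens the rule by construction. Thresholds of 20 and 30, an overlap of 100 bp and the percentile over the highest peak per region kept it within 1.5 times. The share near a gene end was 21.2% within 2 kb and 89.3% within 50 kb. The share of promoter-covering regions with the core was 2.94% for the CpG spelling and 58.3% for the 12 regions chosen over shared regions only. The interval of the latter (27.7 to 84.8) held the 43.5% of stronger regions.

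Over all genes, lower calls went from 3554 to 2215 with upper-quartile scaling, and higher calls made up 45.3% of calls in the main result, 63.5% with that scaling and 53.7% with no filter on FPKM; near WT-weak regions these shares were 61.8%, 76.6% and 68.5%. Leaving out 1 RNA library gave 2239 to 2478 higher and 2535 to 2872 lower calls over all genes, and 173 to 192 higher and 95 to 110 lower calls near WT-weak regions, where the lone library of a genotype is assumed to vary like the other group. Near WT-weak regions, higher calls were 621 of 2044 tested genes within 50 kb (30.4%), 109 of 198 with the percentile over shared regions only (55.1%, against 35.7% in the main result), 134 outside chromosomes 11 and X, and 113 outside chromosomes 6, 11, 16 and X, the last pair chosen after seeing the data. Of the 109, 52 came from 65 tested genes on chromosome 11. Outside chromosomes 11 and X, that ranking gave 57 of 132 higher (43.2%) and 19 lower (14.4%). Lower calls near WT-weak regions were 78 with upper-quartile scaling, 497 within 50 kb (24.3%) and 20 with the percentile over shared regions only (10.1%, against 22.1%). The cause was not tested beyond the fewer or more genes that distances and chromosomes admit. Choosing the regions without 1 CTCF list, also tried after seeing the data, gave 30.8% to 34.8% of near genes higher and 23.1% to 25% lower.

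With the replicate number as a block, 3030 genes were higher and 3666 lower, 215 and 140 of them near WT-weak regions, and Meg3 was then called (adjusted p = 0.00553, limma). The deviations of same-numbered libraries correlated at -0.0157 across genes, so the numbers are not shown to pair them. Other changes of call among named genes were losses for Neat1 with no filter (0.0537), for Skp1a without WT replicate 1 (0.0703), for Rnft1 with no filter (0.0505) and with 1 library left out (0.0572 to 0.108), for Ptpn9 (0.0590 to 0.170) and for Col1a2 (0.0987 to 0.228), and gains for Pcdhgc3 without WT replicate 2 (0.0236), Meg3 without WT replicate 1 (0.0269) and Rian with upper-quartile scaling (0.0485). In all, 472 of 492 comparisons kept direction and call. The score has no depth behind it in these files, so sampling error of a percentile is unknown.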
